A study of Mus musculus with 19 samples.

Results

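The 44 genes described here encode the fibrotic and extracellular matrix programme of the liver: collagens, laminins, matrix glycoproteins, proteoglycans, crosslinking enzymes, proteases with their inhibitors, and the growth factors, receptors and contractile genes of matrix-producing cells. They are taken by symbol, and all 44 were found among the 55836 genes counted. Of these, 42 passed the filter on low counts that left 13597 genes to be tested, and Mmp13 and Timp1 did not.

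The members were measured by bulk RNA-seq of whole liver from male C57BL/6 wild-type mice, 8 weeks old at the start, with 1 library per mouse. Mice were fed a control diet (CD, 10% of energy from fat) or a diet that models metabolic dysfunction-associated steatohepatitis (MD, 40% of energy from fat, 20% from fructose, with 2% cholesterol) for 8 weeks. Over the same 8 weeks they were gavaged daily with the Tween vehicle (Veh) or with 2 mg of polyethylene microplastics (PE) per mouse. Vehicle was given to 4 mice on CD (CD + Veh) and 5 on MD (MD + Veh), and PE to 5 mice on each diet (CD + PE and MD + PE); no mouse carried an engineered allele. The summed level of 8 hepatocyte markers lay between 50290 and 96560 CPM (counts scaled to a common library total), and none of the 8 was at 0 in any library.

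In a healthy liver most fibrillar collagen is made by the few fibroblasts of the portal tracts and the capsule, while stellate cells store vitamin A in the space between hepatocytes and sinusoids. On chronic injury, stellate cells become contractile myofibroblasts under TGF-beta and PDGF, secrete collagens I and III, and deposit them as scar that lysyl oxidases crosslink and metalloproteases degrade. Basement membrane collagens and fibronectin have other sources as well, hepatocytes among them, so they can be abundant in liver without scar. In bulk RNA, more cells of a type and more RNA per cell cannot be told apart.

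For each library, depth was between 10398820 and 15456729 counts, and 1 CPM stood for 9.96 to 16.1 counts. Members made up 0.249 to 0.344% of all counts. Every PE library was shallower (at most 12757617 counts) than every vehicle library (at least 13406037), and vehicle libraries were numbered 39 to 47 and PE libraries 48 to 57, so library order and depth cannot be told apart from PE. A further division ran within MD + Veh: the ribosomal pseudogene Rps6-ps4 had 1088 to 1690 counts in libraries 39 to 45, which include MD + Veh 1 to 3, and 0 in libraries 46 to 57. MD + Veh 1 held skeletal muscle transcripts at a summed 5941 CPM over 20 markers, against 12.1 to 747 CPM in the other libraries. MD + PE 2 held intestinal epithelium transcripts at a summed 243 CPM over 9 markers, against 52.4 to 131 CPM in the other libraries. All but Fabp2 were highest there, Sis at 20.9 and Muc2 at 16.5 CPM.

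Proximal promoters are shown for Col1a1 and Col3a1, which encode the main collagens of scar, and for Col14a1 and Reln, which were called differentially expressed. Each line gives the 150 bases before the start of the canonical GENCODE vM39 transcript on GRCm39, read on the strand of the gene, with matches on either strand to the TATA box (TATAAA), the CCAAT box (its letters are its name) or the GC box (GGGCGG) in capitals.
Col1a1 (chr11:94826900-94827049, plus strand): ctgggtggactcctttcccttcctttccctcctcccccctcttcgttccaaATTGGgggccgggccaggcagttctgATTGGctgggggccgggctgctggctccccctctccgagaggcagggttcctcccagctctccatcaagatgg
Col3a1 (chr1:45350548-45350697, plus strand): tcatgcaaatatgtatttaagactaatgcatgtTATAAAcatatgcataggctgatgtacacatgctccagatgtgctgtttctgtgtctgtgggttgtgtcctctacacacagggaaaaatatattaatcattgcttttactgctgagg
Col14a1 (chr15:55170990-55171139, plus strand): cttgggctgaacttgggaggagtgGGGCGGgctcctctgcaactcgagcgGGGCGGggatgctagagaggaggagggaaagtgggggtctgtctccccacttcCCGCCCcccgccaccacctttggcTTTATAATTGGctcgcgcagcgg
Reln (chr5:22549701-22549850, minus strand): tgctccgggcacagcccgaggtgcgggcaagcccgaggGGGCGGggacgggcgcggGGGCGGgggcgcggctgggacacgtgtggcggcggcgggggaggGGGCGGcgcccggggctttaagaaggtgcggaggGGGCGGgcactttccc

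In these 150 bases Col1a1 held a pair of CCAAT boxes in inverted orientation and no TATAAA. Bases after the annotated start were not searched. Col3a1 held a TATAAA at position -117 from the start and neither other motif. Col14a1 held all 3 motifs, its inverted TATAAA and CCAAT lying side by side without overlap, and Reln held GGGCGG alone. Over the 250 bases before the start, CCAAT was present in 17 of 44 members (38.6%, against 36.5% of 21757 protein-coding promoters) and GGGCGG in 18 (40.9% against 36.3%). TATAAA was present in 4 members (9.09% against 11.9%) and TGANTCA, the AP-1 motif, in 2 (4.55% against 6.18%). CAGAC, a SMAD half-site, was in 21 (47.7% against 41.4%), and GGAATG, the letters TEAD factors bind, was in 9 (20.5% against 12.1%), Ccn2 and Acta2 included. The shares describe letters in a window and say nothing of factor binding.

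Levels between members were compared as CPM per kilobase of the canonical transcript. In CD + Veh, Col18a1, whose C-terminal fragment is endostatin, stood highest at 207 ± 12.9 CPM per kb (SD, n = 4), followed by Fn1, encoding fibronectin, at 154 ± 10.1. The small leucine-rich proteoglycan biglycan (Bgn) came next at 29.2 ± 2.5 CPM per kb. Sparc, a collagen-binding glycoprotein, at 15.8 ± 2.86, decorin (Dcn) at 14.9 ± 1.72 and Col5a3 at 13.5 ± 5.2 lay within their spread of each other. The collagens of scar were far lower, Col3a1 at 5.77 ± 2.19 and Col1a1 at 1.21 ± 0.571 CPM per kb. At the bottom, Timp1 at 0.0905 ± 0.112 and the collagenase Mmp13 at 0.0305 ± 0.0371 could not be separated.

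**Figure D1:**
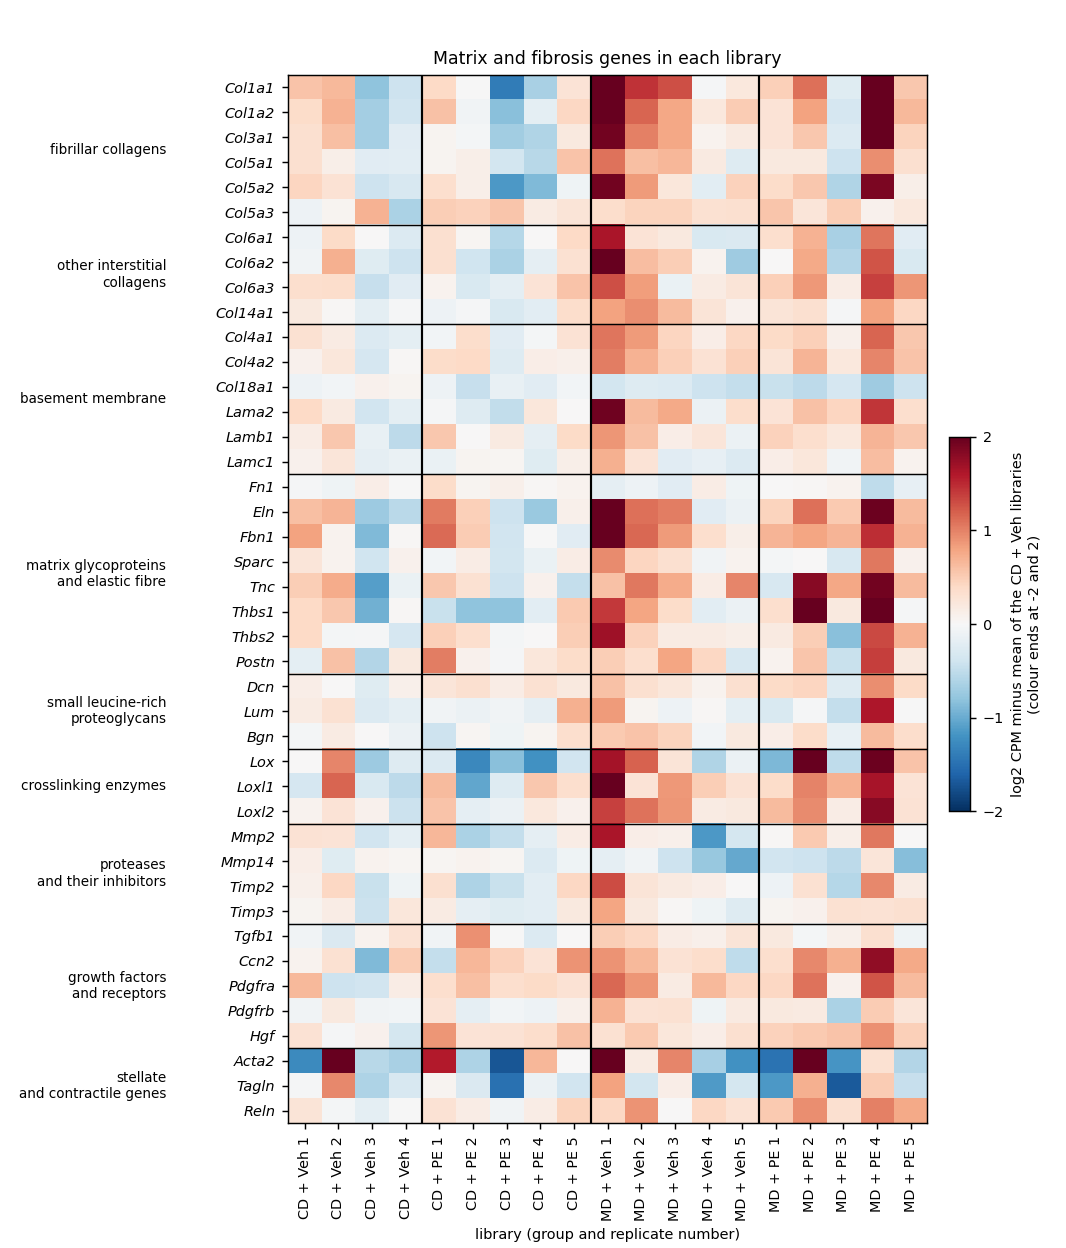
Log2 CPM of the 42 members tested (rows, by role) in each of 19 libraries (columns, by group), as the difference from the mean of the CD + Veh libraries; colour ends at -2 and 2. MD + Veh 1 and MD + PE 4 are the darkest columns, with member medians of 1.05 and 1.06, while Col18a1 and Fn1 are below 0 in both.

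The first comparison asked how MD changed them in vehicle-gavaged mice. In MD + Veh against CD + Veh, 2 of the 42 members tested were called, both higher on MD (edgeR quasi-likelihood F test; a call needed a Benjamini-Hochberg adjusted p under 0.05 and a log2 change of 0.38 or more in either direction), where 10.4% of all genes tested were called and 4.74% were called higher. These were Col4a2, a chain of the basement membrane collagen IV, and Col14a1, a collagen that sits on fibril surfaces. By fold change alone 37 of 42 members lay above 0, against 49.4% of all genes, with a median log2 fold change of 0.47 against -0.00415 over all genes. Before adjustment, 11 members had p below 0.05 in the higher direction and 2 in the lower, against 13.7% and 14.9% of all genes.

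Markers of other cells moved in the same comparison. Of 19 skeletal muscle markers tested, 16 rose, and their sums were 5941, 383, 214, 41.2 and 16.5 CPM in MD + Veh 1 to 5 against 19.7, 88.4, 20.5 and 13.5 CPM in CD + Veh. The stellate markers Colec11 and Rgs5 rose (2 of 16), the macrophage markers Gpnmb, Itgax and Lpl rose and Cd9 fell (4 of 9), and the hepatocyte genes Alb and Apoa1 fell (2 of 8). These counts stand against 10.4% of all genes called, and Lpl was highest in MD + Veh 1, at 178 CPM. All 10 Kupffer cell markers lay above 0 (49.4% of all genes) and 6 did not overlap between the groups (7.37% of all genes), but 0 were called. With the muscle list as a covariate neither Col4a2 nor Col14a1 was called, and since MD + Veh 1 to 3 lay above all of CD + Veh in muscle level its part cannot be told apart from that of the diet.

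Col4a2 stood at 24.9, 27.3, 18.6 and 23.8 CPM in the CD + Veh libraries and at 47.7, 38.1, 32.6, 28.5 and 32.5 CPM in the MD + Veh libraries. The lowest MD + Veh library lay above the highest CD + Veh library, so the groups did not overlap, which 7.37% of all genes also showed in this direction. The log2 fold change was 0.60 (SE 0.174, edgeR adjusted p = 0.0258). In the PE-gavaged mice Col4a2 stood at 30.2, 30.9, 19.6, 25.7 and 25.0 CPM on CD and at 28.0, 37.6, 27.1, 46.1 and 34.8 CPM on MD. These groups overlapped, with a difference of 0.40 (SE 0.164, edgeR adjusted p = 0.152) that did not pass the test.

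Col4a1, whose chain assembles with that of Col4a2, had the same size of difference, 0.60 (SE 0.209), and an edgeR adjusted p of 0.0597, and DESeq2 called it. The genes lie head to head on chromosome 8 (chr8:11248423-11362826, minus strand, and chr8:11362471-11499287, plus strand), with start sites 317 bases apart and annotated gene bodies that share 356 bases. The libraries were stranded, so reads of the shared bases could be assigned to a strand. Col4a1 averaged 27.5 ± 5.34 CPM over the 4 CD + Veh libraries (mean ± SD) and 41.8 ± 11.2 CPM over the 5 MD + Veh libraries.

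Col14a1 stood at 40.9, 36.1, 31.1 and 34.9 CPM in CD + Veh and at 62.6, 67.8, 55.5, 42.6 and 37.8 CPM in MD + Veh. MD + Veh 5 lay below the highest CD + Veh library, and the other 4 lay above all of CD + Veh. The log2 fold change was 0.58 (SE 0.177, edgeR adjusted p = 0.0362). With PE, Col14a1 stood at 33.2, 34.9, 28.9, 30.6 and 45.6 CPM on CD and at 42.6, 44.5, 35.03, 62.1 and 47.5 CPM on MD, a difference of 0.42 (SE 0.167, edgeR adjusted p = 0.141) between overlapping groups.

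The same question in PE-gavaged mice sets other libraries against each other, although the fit estimates the spread from all 19. In MD + PE against CD + PE, 1 of 42 members was called, Reln, higher on MD, where 4.61% of all genes were called and 1.69% were called higher. Reelin is a secreted glycoprotein that quiescent and activated stellate cells make. Again 37 of 42 members lay above 0 (46.6% of all genes), with a median of 0.39 against -0.0192 over all genes, and 13 had an unadjusted p below 0.05 in the higher direction against 2 in the lower (9.1% and 12.6% of all genes).

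Reln (chr5:22089452-22549700) stood at 38.1, 34.5, 29.5, 34.4 and 42.4 CPM in CD + PE and at 44.7, 59.1, 38.8, 63.0 and 52.6 CPM in MD + PE. All MD + PE libraries but MD + PE 3 lay above all of CD + PE. The log2 fold change was 0.53 (SE 0.153, edgeR adjusted p = 0.0406). In vehicle-gavaged mice Reln stood at 37.1, 30.2, 27.1 and 30.8 CPM on CD and at 41.3, 58.0, 31.4, 41.6 and 38.1 CPM on MD, a difference of 0.43 (SE 0.162, edgeR adjusted p = 0.0849).

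The direction of the fold changes was shared by the comparisons: 35 of 42 members (83.3%) were higher on MD with vehicle and with PE, against 32.8% of all genes. Col18a1, Fn1 and the membrane-anchored metalloprotease gene Mmp14 were lower on MD in both, and Col5a3, Tgfb1, Acta2 and Tagln had opposite signs. With MD + Veh 1 and MD + PE 4 left out, a setting chosen after their levels were seen, 26 of the 41 members tested (63.4%) were higher in both, against 32.1% of all genes, and the medians were 0.29 with vehicle and 0.23 with PE. Members called were then 2 with vehicle, Col4a2 (higher) and Mmp14 (lower), where 9.48% of all genes were called, and 0 with PE, where 3.72% were called. Both lost calls kept most of their size: Col14a1 with vehicle was 0.51 (edgeR adjusted p = 0.0555) and Reln with PE was 0.46 (edgeR adjusted p = 0.110). With MD + Veh 1 alone left out, Col4a2 was not called with vehicle either.

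**Figure D2:**
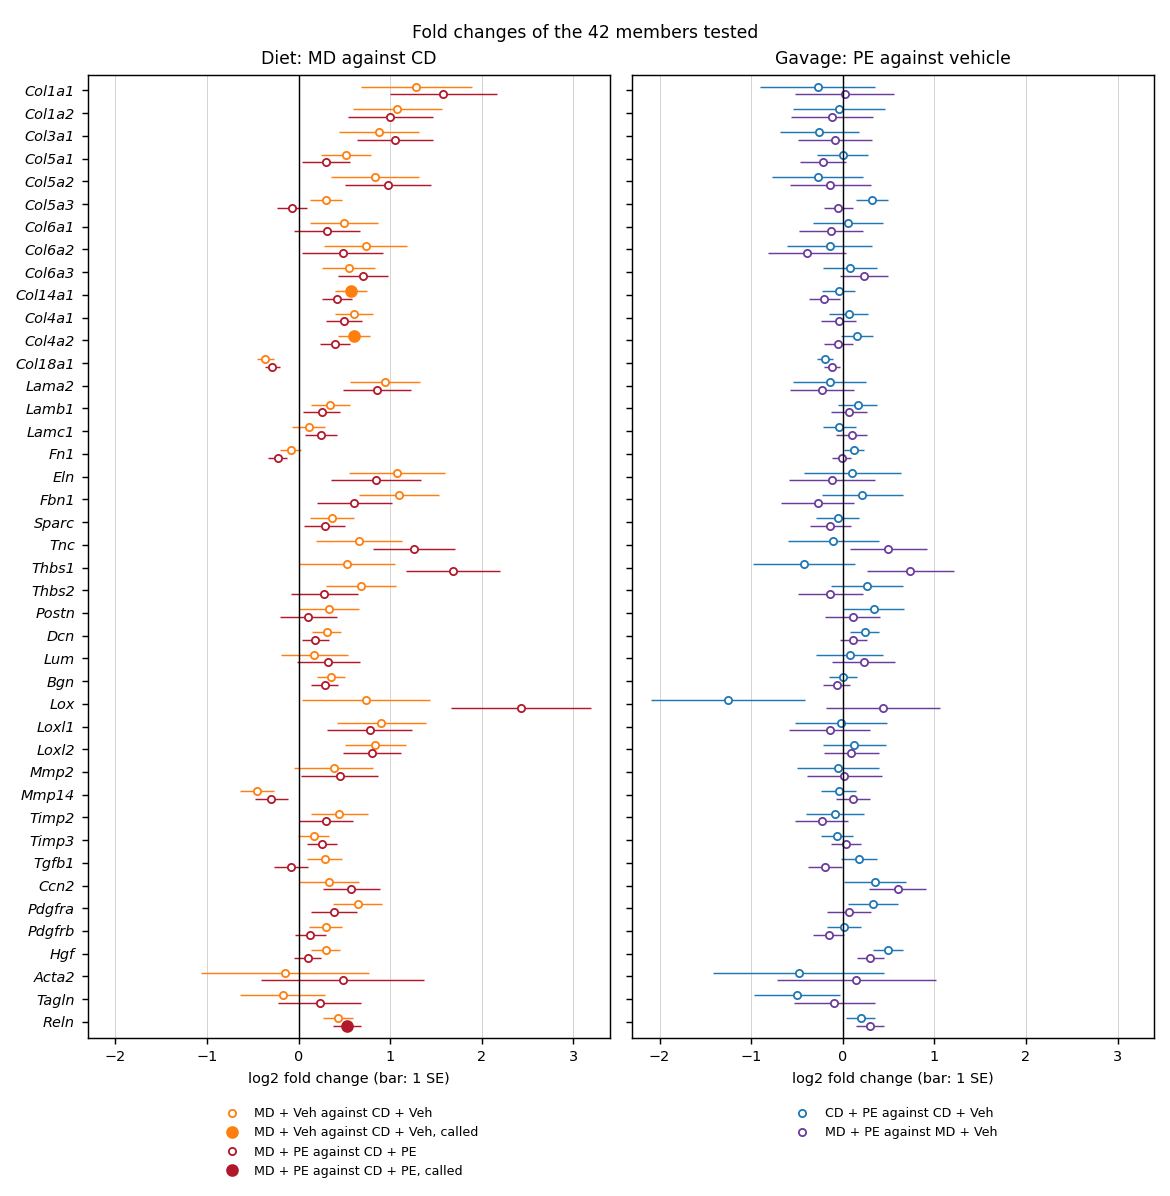
Log2 fold change (horizontal axis, bars 1 SE) of each of the 42 members tested, for MD against CD on the left and PE against vehicle on the right; filled points were called. Nearly all points on the left lie right of 0 (37 of 42 in each comparison), with Col4a2, Col14a1 and Reln filled, whereas on the right the points straddle 0 and none is filled.

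By role, the fibrillar collagens came first. Their median log2 fold change was 0.86 with vehicle (6 of 6 above 0) and 0.99 with PE (5 of 6 above 0), and none was called in either. Without MD + Veh 1 and MD + PE 4 the medians were 0.41 and 0.39; values without these libraries are given below in the order vehicle, PE. The remaining genes with library values from here on were chosen after their values were seen. Col1a1, the alpha 1 chain of collagen I, stood at 9.83, 10.3, 3.69 and 4.85 CPM in CD + Veh and at 38.7, 18.1, 16.2, 6.42 and 7.57 CPM in MD + Veh. It stood at 8.72, 6.49, 2.38, 4.12 and 7.90 CPM in CD + PE and at 9.18, 14.2, 5.48, 49.4 and 9.61 CPM in MD + PE. The CD and MD libraries overlapped under both gavages, MD + Veh 1 and MD + PE 4 stood highest, and the other libraries reached at most 18.1 CPM. The differences were 1.29 (SE 0.605, edgeR adjusted p = 0.168) with vehicle and 1.58 (SE 0.583, edgeR adjusted p = 0.113) with PE, and 0.75 and 0.71 (edgeR adjusted p = 0.261 and 0.363) without those 2 libraries.

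Col3a1, the collagen that forms the reticular fibres of liver, had its 2 highest values in the same libraries, 115 and 131 CPM, where the other 17 lay between 18.7 and 61.2 CPM. Its differences on MD were 0.88 (SE 0.434) with vehicle and 1.05 (SE 0.412) with PE, and 0.48 and 0.47 without those libraries. Col1a2, Col5a1 and Col5a2 were highest in the same pair of libraries, whereas Col5a3 was not, with values of 50.9 to 128 CPM and its maximum in CD + Veh 3.

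Other interstitial collagens, the 3 chains of collagen VI and Col14a1, lay above 0 in 4 of 4 cases under each gavage, with medians of 0.56 and 0.45. Without MD + Veh 1 and MD + PE 4 the medians were 0.21 and 0.23, Col6a1 with vehicle turned to -0.02, and Col6a2 was 0.14 and 0.15. Basement membrane genes lay above 0 in 5 of 6 cases in each, the laminin chain Lama2 with the largest difference, 0.94 (SE 0.382, edgeR adjusted p = 0.109) and 0.86 (SE 0.374, edgeR adjusted p = 0.184). With PE, Lama2 ranged from 0.795 to 1.41 CPM on CD and from 1.46 to 3.43 CPM on MD without overlap, which 2.21% of all genes showed in this direction. Lamb1 and Lamc1, the other laminin chains, differed by 0.11 to 0.35. Without the 2 libraries Lama2 was 0.45 and 0.57, and Lamc1 with vehicle turned to -0.09.

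Col18a1 went the other way. It stood at 1082, 1108, 1231 and 1203 CPM in CD + Veh and at 896, 961, 950.1, 862 and 832 CPM in MD + Veh, and every MD + Veh library was below every CD + Veh library (8.88% of all genes in this direction). The difference was -0.36 (SE 0.0890, edgeR adjusted p = 0.01), past the adjusted p but short of the fold limit, so it was not called. With PE it was 1077, 839, 1046, 982 and 1107 CPM on CD and 851, 801, 919, 707 and 864 CPM on MD, a difference of -0.29 (SE 0.0843, edgeR adjusted p = 0.0451), again short of the fold limit. Fn1 differed by -0.09 and -0.23, not past the test, and its lowest library of all 19 was MD + PE 4 at 905 CPM.

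Among matrix glycoproteins and elastic fibre genes, 7 of 8 lay above 0 under each gavage. Elastin (Eln) and fibrillin 1 (Fbn1), the core and scaffold of elastic fibres, differed by 1.07 and 1.097 with vehicle and by 0.85 and 0.61 with PE, and none of the 4 values passed the test (edgeR adjusted p of 0.101 to 0.419). Without MD + Veh 1 and MD + PE 4 they were 0.45 and 0.58 with vehicle and 0.49 and 0.42 with PE, and 7 and 4 of the 8 genes lay above 0. Thbs1, which encodes thrombospondin 1, an activator of latent TGF-beta, stood at 0.830, 0.614, 0.618, 1.00 and 1.78 CPM in CD + PE and at 1.54, 5.81, 1.39, 5.56 and 1.17 CPM in MD + PE. MD + PE 2 and 4 alone exceeded CD + PE 5, and the difference of 1.69 (SE 0.515) had an edgeR adjusted p of 0.0537 and was called by DESeq2. The part of the intestinal transcripts of MD + PE 2 in this difference was not tested. The proteoglycans decorin, lumican (Lum) and biglycan lay above 0 in all cases, by 0.17 to 0.35. With the same libraries left out, Lum turned to -0.07 and -0.28, and Dcn with PE was 0.03.

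The crosslinking enzymes lay above 0 in 3 of 3 cases under each gavage. Lox, lysyl oxidase itself, was near the counting limit, at 0.0877 to 0.332 CPM in CD + PE and at 0.163, 2.27, 0.261, 2.13 and 0.718 CPM in MD + PE. Only MD + PE 2, 4 and 5 lay above CD + PE, and the difference of 2.43 (SE 0.764) had an edgeR adjusted p of 0.0611 and was called by DESeq2. Here too the part of the intestinal transcripts of MD + PE 2 was not tested. Loxl2, which also modifies basement membranes, differed by 0.84 (SE 0.332) and 0.80 (SE 0.315). Leaving out both libraries, Loxl2 was 0.65 and 0.43, and Lox did not pass the filter.

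Of the proteases and inhibitors, Mmp2, Timp2 and Timp3 lay above 0 on MD under both gavages by 0.16 to 0.45, and none was called. Without MD + Veh 1 and MD + PE 4, Mmp2 and Timp3 with vehicle turned to -0.27 and -0.05, and Timp2 was 0.12 and 0.05. Mmp14, the activator of Mmp2, was at 28.0 ± 3.16 CPM among the 4 CD + Veh libraries (mean ± SD) and 20.4 ± 5.45 CPM among the 5 MD + Veh libraries (-0.45, SE 0.189, edgeR adjusted p = 0.121). Timp1, an inhibitor that activated stellate cells secrete, stood at 0.124, 0.215, 0 and 0 CPM in CD + Veh, at 0, 0.175, 0.177, 0 and 0 CPM in CD + PE, at 0.507, 0.496, 0.0682, 0.387 and 0.0773 CPM in MD + Veh and at 0.0813, 0.337, 0, 1.85 and 0.0898 CPM in MD + PE. A library at 0 allows up to 3 counts (0.186 to 0.301 CPM at these depths), and MD + PE 4 alone passed 1 CPM. Mmp13, the main collagenase of rodents, was likewise highest in MD + PE 4 at 3.30 CPM and at most 0.988 CPM elsewhere, and DESeq2 called it in MD + PE against CD + PE.

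Tgfb1, the central fibrogenic cytokine, ranged from 5.73 to 9.95 CPM in all libraries but CD + PE 2, which stood at 13.4 CPM. The summed level of 10 Kupffer cell markers was 891 CPM in that library and 123 to 452 CPM in the others, and its part in the Tgfb1 level was not tested. Ccn2, a matricellular target of TGF-beta and YAP signalling, differed on MD by 0.33 and 0.58, and the PDGF receptors Pdgfra and Pdgfrb by 0.13 to 0.65, none called. When MD + Veh 1 and MD + PE 4 were left out, Ccn2 was 0.17 and 0.30, Pdgfra 0.49 and 0.23, and Pdgfrb 0.17 and 0.03.

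The myofibroblast genes Acta2, encoding smooth muscle actin, and Tagln, encoding transgelin, were not called in any comparison. Acta2 stood at 1.62, 23.8, 2.75 and 2.56 CPM in CD + Veh, at 12.7, 2.63, 1.15, 6.63 and 4.15 CPM in CD + PE, at 17.1, 4.65, 8.25, 2.55 and 1.70 CPM in MD + Veh and at 1.38, 27.3, 1.74, 5.15 and 2.69 CPM in MD + PE. It was highest in 1 library of each group, and in MD + PE that library was not MD + PE 4. The 4 libraries with Acta2 above 10 CPM, CD + Veh 2, CD + PE 1, MD + Veh 1 and MD + PE 2, also had the highest sums of 6 smooth muscle markers, at 56.1, 30.0, 68.5 and 74.9 CPM against 8.19 to 17.0 CPM in the other 15. MD + PE 2 also held intestinal epithelium transcripts, and MD + Veh 1 skeletal muscle transcripts. The source of the smooth muscle transcripts and their part in Acta2 were not tested.

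**Figure D3:**
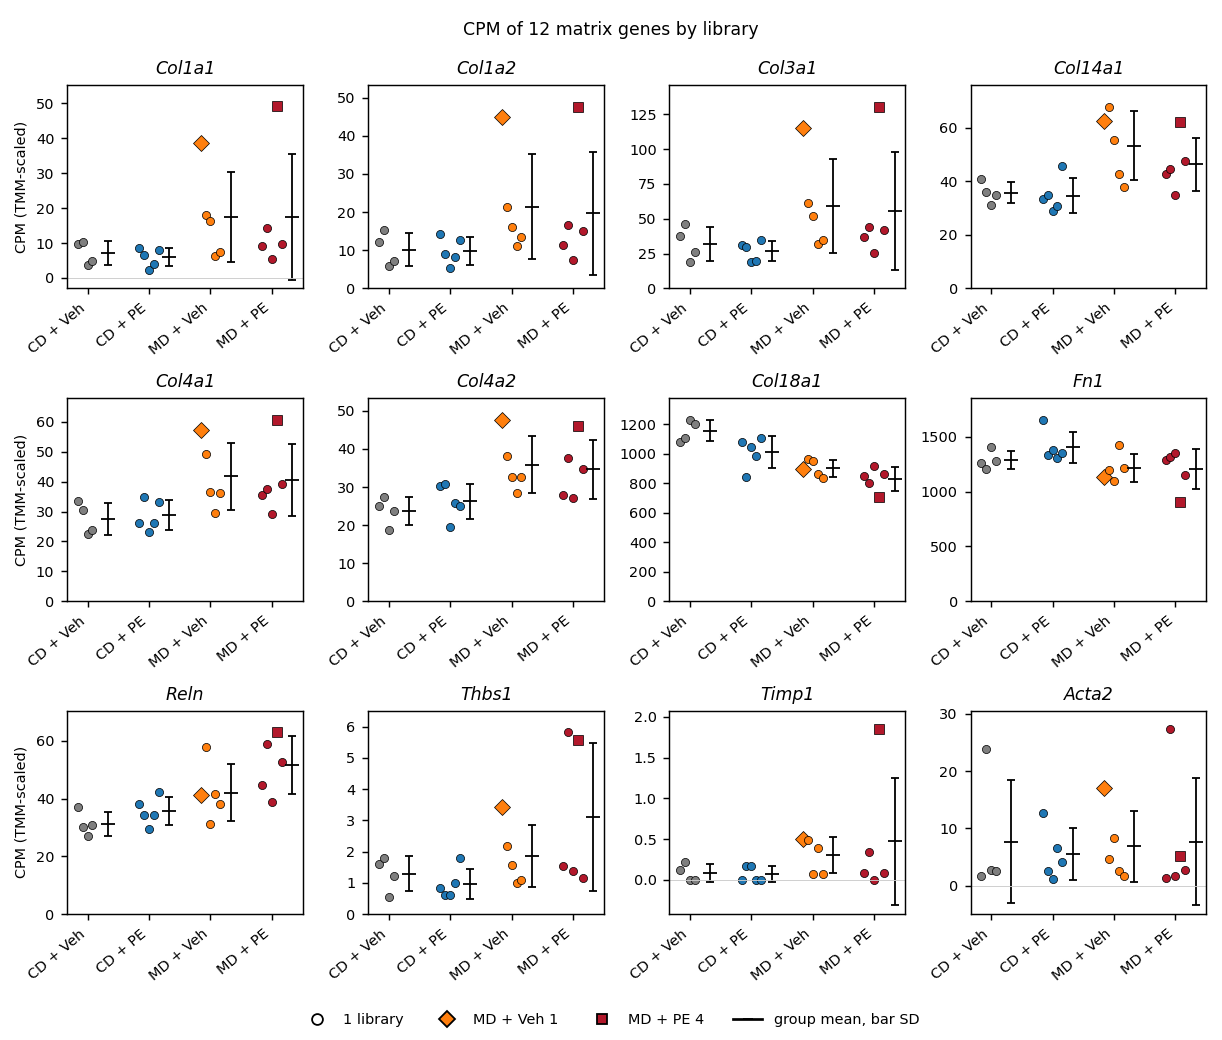
CPM (vertical axes, linear) of 12 members in each library by group, with the group mean and SD at the right of each group; MD + Veh 1 is the diamond and MD + PE 4 the square. The fibrillar collagens are set apart by those libraries (Col1a1 at 38.7 and 49.4 CPM), Col4a2 is also highest in that pair (47.7 and 46.1 CPM) and Reln in MD + PE 4, and Acta2 peaks in 1 library of each group.

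PE against vehicle was compared within each diet. In CD + PE against CD + Veh, edgeR called 0 of 42 members, and DESeq2, which fitted all 44, called 0, where 2.92% of all genes were called, and 2 members had an unadjusted p below 0.05 (17.5% of all genes). As many members lay above 0 as below, 21 each (51.1% of all genes above), with a median of 0.000768 against 0.00642 over all genes. In MD + PE against MD + Veh, 0 of 42 members were called by edgeR and 0 of 44 by DESeq2, where 1.08% of all genes were called, and 0 had an unadjusted p below 0.05 (15.7% of all genes), with 19 above 0 (47.8% of all genes) and a median of -0.05 against -0.0118. The groups compared share no library: 10 members were higher with PE on both diets, 12 lower on both and 20 opposite, and the share higher on both was 23.8% against 29.6% of all genes.

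The member with the lowest p after PE was Hgf, which encodes hepatocyte growth factor, a mitogen that stellate cells supply to hepatocytes. It stood at 5.66, 4.51, 4.90 and 3.57 CPM in CD + Veh and at 8.63, 5.61, 5.65, 5.93 and 7.02 CPM in CD + PE. The groups overlapped only where CD + Veh 1 stood just above CD + PE 2 and CD + PE 3, and the difference was 0.49 (SE 0.161, edgeR adjusted p = 0.0946). On MD it was 0.30 (SE 0.149, edgeR adjusted p = 0.341). Dcn was higher in every CD + PE library (101 to 114 CPM) than in any CD + Veh library (76.2 to 99.4 CPM), as were 3.49% of all genes, with a difference of 0.24 that did not pass the test (edgeR adjusted p = 0.472).

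The fibrillar collagens differed between PE and vehicle by a median of -0.15 on CD and -0.10 on MD. For Col1a1 the difference was -0.27 (SE 0.626) on CD and 0.02 (SE 0.540) on MD, and for Reln it was 0.19 (SE 0.163) and 0.30 (SE 0.151). The interaction of PE and diet, the test of whether PE acted differently on the 2 diets, called 0 of 42 members in edgeR and 0 of 44 in DESeq2, where 0.00735% of all genes were called, and 0 members had an unadjusted p below 0.05 (8.77% of all genes).

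MD + Veh 1 and MD + PE 4 held the highest level of all 19 libraries in 33 of 42 members (78.6%, against 14.8% of all genes), and they were the top pair in 25 (59.5% against 1.97%). Relative to the other libraries of their own group, members were higher by a median of 1.76-fold in MD + Veh 1 and 1.95-fold in MD + PE 4, and 18 and 21 of them by at least 2-fold (4.88% and 4.1% of all genes). The per-library median of the members was 1.05 and 1.06 there on the log2 scale and -0.32 to 0.57 in the other 17. In MD + Veh the medians were 1.05, 0.57 and 0.30 in replicates 1 to 3, which lie before the division of library numbers, and 0.09 and 0.10 in replicates 4 and 5, which lie after it.

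The 2 libraries differed in part of what else they held. Hepatocyte marker sums were the lowest of all libraries in both, at 53200 CPM in MD + Veh 1 and 50290 CPM in MD + PE 4, against 55250 to 96560 CPM elsewhere. Skeletal muscle markers were highest in MD + Veh 1 (5941 CPM) and lowest of all in MD + PE 4 (12.1 CPM). Adipoq, Plin1, Lep and Retn, of 6 adipose markers, were also highest in MD + Veh 1, at 4.18, 3.99, 3.04 and 1.33 CPM. They did not pass the filter, and Cidea and Pnpla2 were highest in other libraries. The 16 stellate markers summed to 447 CPM in MD + Veh 1 and 316 CPM in MD + PE 4, against 219.5 to 325 CPM elsewhere. Des, which muscle also expresses, made up 155 CPM of the first sum, and the second lay inside the range of the other libraries. The 11 markers of fibroblasts and capsule mesothelium summed to 113 and 90.6 CPM against 30.4 to 83.5 CPM. Gas6 made up 75.2 CPM of the 83.5 CPM, which was the sum of CD + Veh 4. Markers of lipid-associated macrophages, which gather at dying fat-laden hepatocytes, summed to 263 and 307 CPM against 67.3 to 145 CPM. Lpl, a lipase that muscle and fat also express, made up 178 CPM of this in MD + Veh 1 and 74.0 CPM in MD + PE 4. Without Lpl the sums were 85.5 and 233 CPM against 49.8 to 84.3 CPM, so MD + PE 4 alone stood apart. With the muscle list as a covariate, the member median of MD + Veh against CD + Veh was 0.10 and the only member called was Col18a1 (lower). In MD + PE against CD + PE 10 members were called, and the median of MD + PE against MD + Veh was 0.55. The share of all genes called with this covariate is not given, so these counts are not read as a result about the members. The parts of the other cell types were not tested.

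**Figure D4:**
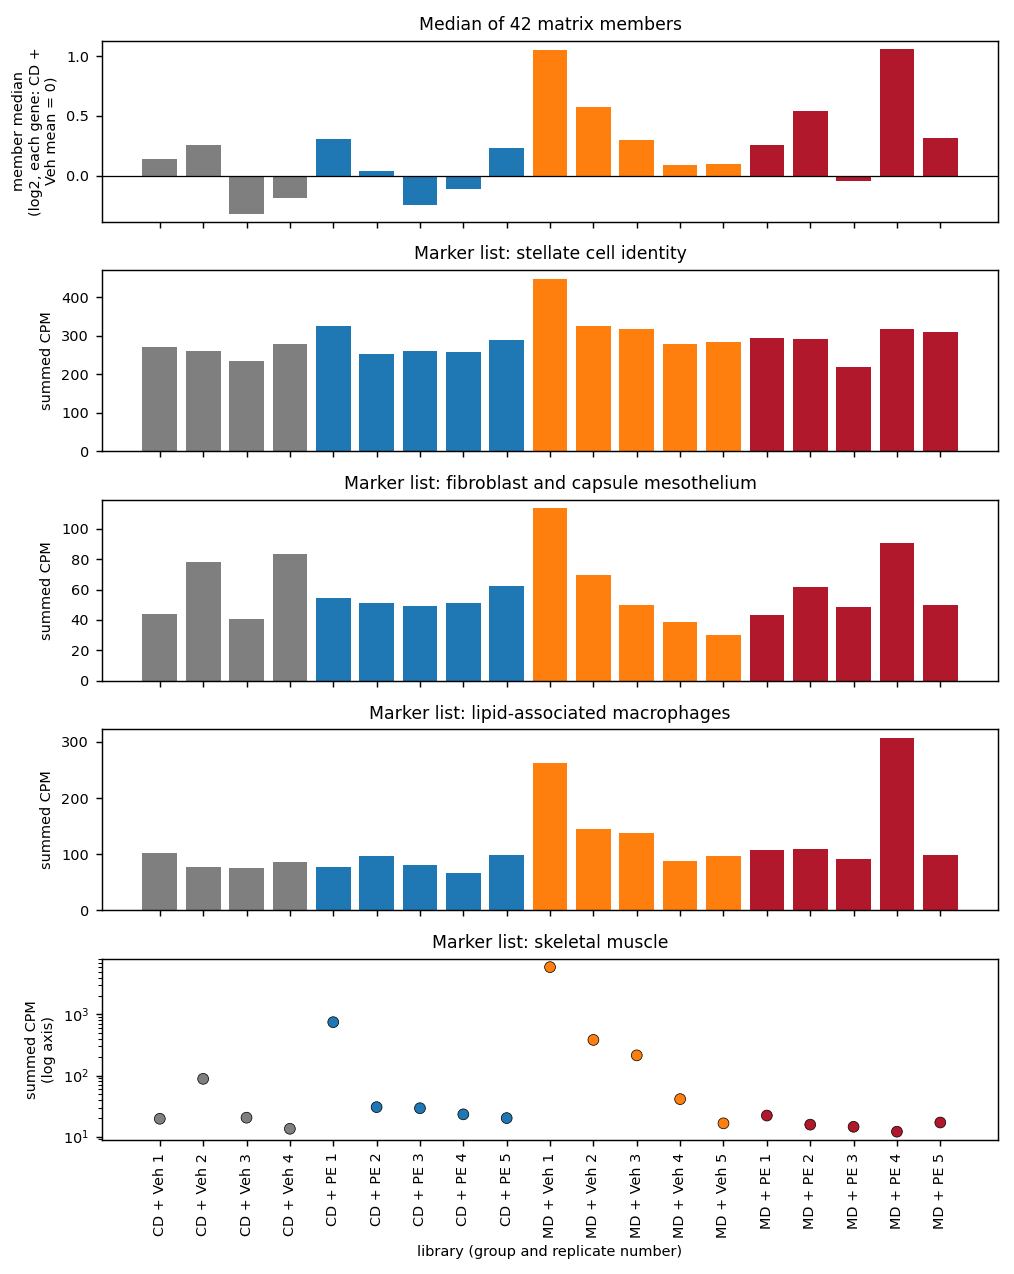
Per-library median log2 level of the 42 members relative to CD + Veh (top) and summed CPM of 4 marker lists (below; the skeletal muscle axis is logarithmic). MD + Veh 1 and MD + PE 4 share the highest member medians (1.05 and 1.06) and the highest macrophage sums (263, of which Lpl is 178, and 307 CPM), while skeletal muscle is at 5941 CPM in the former and 12.1 CPM in the latter.

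Other genes of the matrix pathways were counted from lists of their own. Their counts stand against 10.4% of all genes called on MD with vehicle, 4.61% on MD with PE, and 2.92% and 1.08% after PE on CD and MD, and no list was tested as a set. Of 27 TGF-beta pathway genes tested, 1 rose and 2 fell on MD with vehicle, 0 were called on MD with PE, and after PE 1 fell on CD and 0 were called on MD. Inhbe, which encodes a hepatocyte activin subunit, rose on MD with vehicle by 0.89 (SE 0.180, edgeR adjusted p = 0.00224), while Inhba, another activin subunit, fell by 1.42 (edgeR adjusted p = 0.00428) and the inhibitor Smad7 by 0.55 (edgeR adjusted p = 0.0324). The receptor Tgfbr2 fell after PE on CD by 0.49 (edgeR adjusted p = 0.0481), from 31.5 ± 6.56 CPM (SD, n = 4) to 22.5 ± 3.90 CPM (n = 5), but it was called in only 2 of 19 fits that each left out 1 library, with differences of -0.60 to -0.38. Smad7 was called in 15 of 19, and Inhbe and Inhba in all 19.

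Of 23 genes of collagen biosynthesis tested, 3 rose and 2 fell on MD with vehicle, 2 rose and 1 fell on MD with PE, and 0 were called after PE on either diet. The lysyl hydroxylase Plod1 rose by 0.41 (SE 0.0731, edgeR adjusted p = 0.000833) and the foldase Fkbp14 fell by 0.69 (edgeR adjusted p = 0.00378) with vehicle, and Fkbp14 fell by 0.59 with PE (edgeR adjusted p = 0.0197). Of 8 other collagens tested, Col12a1, a fibril-associated collagen, was called, and rose on MD under both gavages, from 1.38 ± 0.34 to 2.71 ± 0.475 CPM with vehicle (0.97, edgeR adjusted p = 0.0172) and from 1.43 ± 0.393 to 3.48 ± 1.08 CPM with PE (1.28, edgeR adjusted p = 0.00326). Of 19 matrix receptors, 1 was called, Sdc1, a heparan sulfate proteoglycan of hepatocytes, which rose by 0.43 on MD with vehicle (edgeR adjusted p = 0.00182).

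Of 11 other matrix proteases and inhibitors tested, 2 rose and 2 fell on MD with vehicle, 2 rose on MD with PE and 1 fell after PE on CD. Mmp19 rose on MD from 45.7 ± 4.52 to 76.4 ± 5.71 CPM with vehicle (0.74, SE 0.101, edgeR adjusted p = 7.71e-05) and by 0.50 with PE (edgeR adjusted p = 0.00272). Reck, a membrane inhibitor of metalloproteases, fell after PE on CD from 10.7 ± 3.58 to 5.50 ± 0.754 CPM (-0.96, edgeR adjusted p = 0.00869) and by 1.13 on MD with vehicle (edgeR adjusted p = 0.000583). Mmp12, the macrophage elastase, rose by 4.59 on MD with PE (edgeR adjusted p = 0.00404), at 3.90, 2.19, 0.695, 23.4 and 4.04 CPM in MD + PE, and by 3.25 without MD + PE 4 (edgeR adjusted p = 0.0113). It is also a marker of the macrophage list above. Mmp15 fell by 0.52 on MD with vehicle (edgeR adjusted p = 0.00896).

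Of 10 genes of the PDGF and HGF pathway, 2 rose and 1 fell on MD with vehicle, 1 rose and 1 fell on MD with PE, and 0 were called after PE on either diet. Hgfac, the protease that activates HGF, fell by 0.68 with vehicle (from 315 ± 16.3 to 196 ± 17.0 CPM, edgeR adjusted p = 0.000318) and with PE (edgeR adjusted p = 0.000325). Pdgfb and Pdgfc, ligands of the PDGF receptors, rose on MD with vehicle by 1.34 (edgeR adjusted p = 0.00706) and 0.93 (edgeR adjusted p = 0.0331). St14, another activator of HGF, rose on MD with PE by 2.16 (SE 0.578, edgeR adjusted p = 0.0288). It stood at 1.16, 0.263, 0.795, 0.603 and 0.988 CPM in CD + PE and at 1.38, 11.2, 1.74, 2.06 and 0.808 CPM in MD + PE, and without MD + PE 2 the difference was 0.97 (edgeR adjusted p = 0.124) and not called; the call also ended without CD + PE 3 or CD + PE 4. Pdgfc was called in 14 of 19 such fits and Pdgfb in all 19. Cholangiocyte markers were highest in MD + PE 2, at 157 CPM against 25.3 to 40.99 CPM elsewhere, and so were intestinal epithelium markers, at 243 CPM. The part of either in the rise of St14 was not tested.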

How the data were processed

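Livers of 19 mice were profiled by stranded poly(A) RNA-seq. The authors trimmed reads with fastp 0.23.4, ran Salmon 1.10.3 on GENCODE transcripts (GRCm39) and used tximport to reach gene level, so the deposited table holds estimated counts per gene, whole and not normalized. Here the counts were rounded, filtered with filterByExpr and scaled by TMM in edgeR 4.0.16 (R 4.3.3), and a quasi-likelihood F test was fitted over all 19 libraries with 1 coefficient per group. Calls needed a Benjamini-Hochberg adjusted p under 0.05 over 13597 genes and a log2 change of 0.38 or more in size, limits taken from the methods of the study. CPM are TMM-scaled, and per-library medians used a prior count of 2. The fit was also run on simulated counts, drawn independently for each gene and without outlying libraries. That run does not bear on results that rest on such libraries. Groups came from the labels, which give each library a group and number; all 19 columns matched. Members, gene lists and alternatives were chosen with earlier results of these data known.

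Library values were given for members called in at least 1 comparison, and up to 4 called genes of each pathway list were named by lowest adjusted p. Alternatives were DESeq2 1.42.0, RLE size factors, no minimum fold, other filters, thinning to equal depth, a replicate block, the skeletal muscle list or the division of library numbers as a covariate, fits of only the groups compared, and each library left out. Same-numbered libraries did not deviate together (27 pairs, correlations of -0.245 to 0.41, median 0.0293, 6 above 0.1). No 2 libraries were copies: over 36 pairs within groups the mean squared difference per gene was 11.2 to 83.1 in units of counting error. Positions, lengths and promoters came from GENCODE vM39 on GRCm39, in which all 44 symbols matched. Intervals and the limit of 3 counts cover counting error only.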

Additional observations from a re-analysis of the deposited data

Results flagged for a closer look

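A member was set apart where its highest or lowest library stood off from the rest of its group by more than Dixon's 95% critical value for the gap divided by the range. Of 168 combinations of member and group, 26 met it, all by the highest library. The rate of about 1 in 20 groups behind this limit assumes normal and independent values. CPM on a linear scale, from members that share libraries, need not be either, so the count was not set against that rate. In MD + PE 4 these were Col1a1 (0.801), Col1a2 (0.771), Col3a1 (0.818), Col5a2 (0.735), Lama2 (0.802), Fbn1 (0.884), Sparc (0.794), Lum (0.88) and Hgf (0.811). In MD + Veh 1, which also held skeletal muscle transcripts, they were Col6a1 (0.824), Col6a2 (0.725), Lama2 (0.737), Thbs2 (0.865), Lum (0.822), Loxl1 (0.813), Mmp2 (0.756) and Timp2 (0.872).

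Loxl1 (0.927), Pdgfrb (0.94) and Acta2 (0.949) stood apart in CD + Veh 2, Fn1 (0.783) and Postn (0.711) in CD + PE 1, Tgfb1 (0.83) and Pdgfra (0.723) in CD + PE 2, Lum (0.898) in CD + PE 5, and Acta2 (0.855) in MD + PE 2.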

How the results depend on the processing

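No alternative turned the direction of a called member. The share of all genes called in each refit is not given here. A refit can change calls over all genes, so the counts in this section are not read as changes in the members. In MD + Veh against CD + Veh, the count of 2 members became 8 with a covariate that splits library numbers at 45 and 46 (the division) and 1 (Col18a1) with the skeletal muscle covariate, under which the median fell from 0.47 to 0.101. In MD + PE against CD + PE, the count of 1 became 2 with no minimum fold change, 4 with DESeq2, 2 with a stricter filter, 10 with the skeletal muscle covariate, 3 with the division, 3 with thinning and 0 with MD + Veh 1 and MD + PE 4 both left out. In CD + PE against CD + Veh, thinning gave 1 (Hgf) and the division moved the median to 0.631. In MD + PE against MD + Veh, the median became 0.547 with the skeletal muscle covariate and 0.469 with the division, and the interaction median 0.512 with the former. All CD + Veh libraries lie before the division and all PE libraries after it. Its covariate was therefore estimated only from the MD + Veh libraries on either side of it. Skeletal muscle transcripts of MD + Veh 1 lie on the earlier side, so the medians with the division cannot be read as effects of PE freed of library order. The causes of these shifts were not tested.

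With 1 library left out, the members called ranged from 0 to 1 in CD + PE against CD + Veh (1, Col5a3, without CD + Veh 3), 0 to 0 in MD + PE against MD + Veh, 0 to 4 in MD + Veh against CD + Veh, 0 to 4 in MD + PE against CD + PE and 0 to 0 in the interaction. The medians ranged from -0.0671 to 0.14, -0.237 to 0.255, 0.305 to 0.598, 0.225 to 0.499 and -0.314 to 0.201, in the same order. The extremes of the MD + PE against MD + Veh and interaction medians came without MD + PE 4 (lowest) and MD + Veh 1 (highest). In MD + Veh against CD + Veh, 0 members were called without CD + Veh 4 or MD + Veh 1, 1 without CD + Veh 3 (Col5a3) or MD + Veh 2 (Col18a1, lower), neither of them called with all libraries, and 4 without CD + Veh 1 or MD + PE 4; Col4a2 was called in 15 and Col14a1 in 13 of 19 such fits. In MD + PE against CD + PE, 0 were called without CD + Veh 2, MD + PE 2, MD + PE 4 or any of CD + PE 1 to 4, 1 (Thbs1) without MD + PE 5, 2 without CD + PE 5 or MD + Veh 1, 3 without MD + PE 3 and 4 without MD + PE 1; Reln was called in 11 of 19. With the replicate number as a block, 3 members were called in MD + Veh against CD + Veh (Fbn1 beside the other 2), 1 in MD + PE against CD + PE and 0 elsewhere. Only 4 of 19 libraries correlated best with their own number, which cannot show whether the mice were matched by number.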
